A study of Mus musculus with 8 samples.

Results

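The array of LSK cells whose only lesion was the deletion of Ezh2 was set against the array of LSK cells whose only lesion was the expression of RUNX1S291fs, a truncated mutant of the transcription factor RUNX1. LSK cells are the lineage-negative, Sca-1-positive, c-Kit-positive fraction of bone marrow, which holds stem cells and early progenitors. The pair comprised 2 of the 8 arrays of the series. Both arrays came from month 4 after transplantation and lay on the same slide. Of 20643 genes with a probe, 13549 (65.6%) were well above background on at least 1 of the 2 arrays, as marked by the scanner software, and these are the genes described.

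Both groups were CD45.2 donor cells of C57BL/6 background that carried Cre-ERT, an inducible recombinase, and a retrovirus, and that had been grafted with CD45.1 wild-type marrow into lethally irradiated recipients. Ezh2_deleted denotes Cre-ERT;Ezh2flox/flox cells with the empty vector, in which Ezh2 was deleted after grafting. RUNX1_mutant denotes Cre-ERT;Ezh2wt/wt cells with the RUNX1S291fs vector. The labels give the stage of Ezh2_deleted as normal and that of RUNX1_mutant as normal or pre-MDS, that is, before overt myelodysplastic syndrome. Each array held RNA pooled from 2 to 4 mice, so the spread between mice cannot be seen, and no group has a replicate. Hence no difference between the 2 arrays has a replicate check. A further 3 arrays serve below as wild-type levels, namely WT (CD45.2 Cre-ERT;Ezh2wt/wt cells with the empty vector) and the CD45.1 competitor cells from RUNX1_mutant recipients and from recipients of cells with both lesions, named CD45.1_in_RUNX1_mutant and CD45.1_in_double_mutant. Double_mutant denotes month 4 cells with both lesions.

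Ezh2 is the histone methyltransferase of Polycomb repressive complex PRC2, which places the trimethyl mark on lysine 27 of histone H3 and keeps developmental and lineage genes silent. Runx1 binds DNA with its partner Cbfb and is needed for the formation of blood stem cells, for megakaryocyte maturation and for lymphoid development. RUNX1S291fs keeps the DNA-binding Runt domain and loses the carboxy-terminal part. Among the lineage programmes described below, the pre-B receptor marks the first committed B cells, primary and late granule proteins mark successive steps of neutrophil formation, and mast cell proteases and platelet glycoproteins mark other myeloid branches.

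A level is the log2 signal of a gene's probe minus the 75th percentile over the array's non-control probes, and is 0 for a probe at that percentile. A difference is the level on Ezh2_deleted minus the level on RUNX1_mutant, in log2 units. A gene is called dim where it was not well above background. The difference then takes, in place of a lower dim value, the weakest signal that still counted as above background on that array. Such a difference is a bound and is written as "at least". A dim value brighter than that signal was kept as read. The 75th percentile of signal was 341.5 on Ezh2_deleted and 278.7 on RUNX1_mutant, and 50.7% and 48.2% of probes were well above background. No probe was saturated on any array (0 probes). Over repeat spots of a probe, the median SD of the level was 0.06 on Ezh2_deleted and 0.07 on RUNX1_mutant, which covers spotting only.

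The sort markers lay within 2-fold of each other on the 2 arrays. Kit, the receptor by which the cells were gated, lay at 4.23 on Ezh2_deleted and 4.75 on RUNX1_mutant. Ly6a, which encodes Sca-1, lay at 3.40 and 3.51, and Ptprc, which encodes CD45, at 1.90 and 1.87. Their summed signal, in units of the array's 75th percentile, was 33.1 on Ezh2_deleted and 41.9 on RUNX1_mutant, beside 35.1 to 48.5 on the wild-type arrays. Of the targeted genes, Ezh2 lay at 3.51 on Ezh2_deleted and 3.40 on RUNX1_mutant. The position of its probe in the transcript was not known here, so its level does not check the deletion. Runx1 lay at 3.38 on Ezh2_deleted and 4.41 on RUNX1_mutant, a difference of -1.03, with 3.04 to 3.55 on the wild-type arrays. It was not known whether its probe also reads the retroviral transcript.

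The cells of the 2 arrays differed in sex as well as in lesion. Xist, the RNA that silences 1 X chromosome in female cells, was dim on Ezh2_deleted and lay at 1.84 on RUNX1_mutant. Eif2s3y lay at 2.71 on Ezh2_deleted and was dim on RUNX1_mutant, and Ddx3y lay at 1.74 and was dim; both are genes of the Y chromosome. Uty, also on the Y chromosome, was at least 1.20 higher on Ezh2_deleted. All 3 wild-type arrays had the pattern of RUNX1_mutant, with Xist at 1.19 to 1.78. Lesion and sex cannot be told apart in this pair. Of 473 X-linked genes measured, 52 were higher on Ezh2_deleted by 2-fold or more and 26 lower, against 6.35% and 5.86% of all genes measured. The share higher was thus above that of all genes. Their median difference was 0.01, against -0.06 over all genes.

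Across all genes, 1655 of 13549 (12.2%) were at least 2-fold apart. Of these, 861 (6.35% of those measured) were higher on Ezh2_deleted and 794 (5.86%) were lower, so 52.0% were higher. Scaling by the spike-in controls in place of the 75th percentile moved the median difference from -0.06 to 0.82 and the split to 4668 higher and 226 lower (95.4% higher), so all differences here are relative to the 75th percentile. With normexp background correction 898 genes were 2-fold apart. The 2 wild-type CD45.1 arrays on the same slide were 2-fold apart at 16.2% of genes, a larger share than in the pair, while WT and CD45.1_in_double_mutant, on different slides, were 2-fold apart at 6.63%. WT and CD45.1_in_RUNX1_mutant, also on different slides, were 2-fold apart at 21.0%. CD45.1_in_RUNX1_mutant had the lowest 75th percentile of signal of the 8 arrays, 185.9, and its part in the larger shares was not tested. At greater distances the pair stood further apart than each wild-type pair. The pair was at least 8-fold apart at 199 genes and the CD45.1 arrays at 77. WT stood as far from CD45.1_in_double_mutant at 52 genes and from CD45.1_in_RUNX1_mutant at 136. At least 32-fold apart were 32 genes of the pair, against 6, 7 and 11 in the same order. The upper end was the longer one, with 25 genes at least 32-fold higher on Ezh2_deleted and 7 at least 32-fold lower. Genes dim on 1 array weighed on the higher side, since 849 genes were above background only on Ezh2_deleted and 313 only on RUNX1_mutant. Among the 12387 genes above background on both, 528 were at least 2-fold higher and 654 lower.

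**Figure D1:**
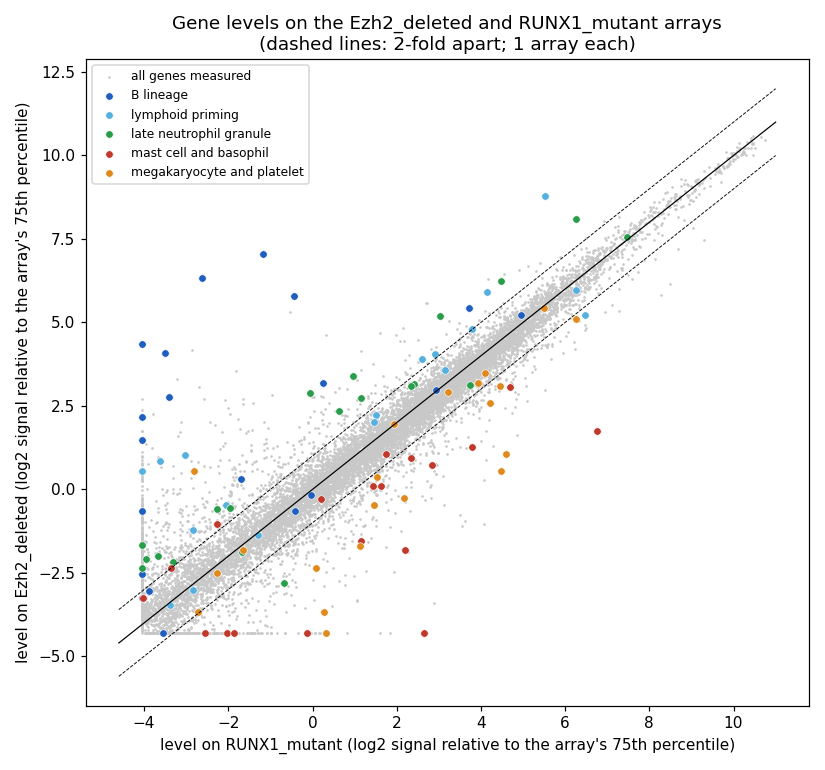
Level of each of the 13549 genes on RUNX1_mutant (horizontal) and Ezh2_deleted (vertical), in log2 signal relative to the array's 75th percentile. Dim values under the lowest signal above background were raised to it, and the dashed lines are 2-fold apart. Of 20 B lineage genes, 13 stand at least 2-fold above the diagonal, up to 8.94. Of 19 mast cell and basophil genes, 14 stand at least 2-fold below it, down to -6.95, and 2 above it. Of 21 megakaryocyte and platelet genes, 12 stand as far below it and 1 above it.

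Among the lists with at least 5 genes measured, those of the B lineage had the median furthest from 0. Vpreb3, which takes part in assembly of the pre-B receptor, lay at 6.32 on Ezh2_deleted and -2.62 on RUNX1_mutant, a difference of 8.94 or 490-fold, beside -0.66, 3.70 and -0.09 on CD45.1_in_RUNX1_mutant, CD45.1_in_double_mutant and WT. Vpreb1 and Vpreb2 encode the variable part of the surrogate light chain, and their probes may share signal since the genes are near-identical copies. Vpreb1 lay at 7.06 and -1.18, and Vpreb2 at 4.07 and -3.50. Igll1, the constant part of that chain, lay at 4.34 on Ezh2_deleted and was dim on RUNX1_mutant, at least 337-fold lower. On all 3 wild-type arrays these 4 genes lay below their level on Ezh2_deleted and, where above background, above their level on RUNX1_mutant.

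Of 20 B lineage genes measured out of 22 listed, 13 were at least 2-fold higher on Ezh2_deleted and 0 lower, against 6.35% and 5.86% of all genes, and the median difference was 2.47 against -0.06. These shares and this median over all genes also stand beside the counts and medians of every list below. Blnk, the adaptor that relays the pre-B receptor signal, lay at 5.81 and -0.44. Pou2af1, a B cell co-activator, lay at 2.76 and -3.40. Ebf1, a transcription factor that commits cells to the B lineage, lay at 1.49 on Ezh2_deleted and was dim on RUNX1_mutant, at least 5.54 lower. Other members were closer or near background: Spib was 2.01 higher, Bank1 at least 1.53 and Pax5, which commits cells to the B lineage and maintains their identity, at least 0.79, while Cd22 differed by -0.24. Ms4a1 and Blk were dim on both arrays. The summed signal of the measured members was 421.9 on Ezh2_deleted, 57.0 on RUNX1_mutant and 78.8 to 124.0 on the wild-type arrays. Against the wild-type range, 11 of the 20 lay at least 2-fold above it on Ezh2_deleted, against 2.5% of all genes, and 4 at least 2-fold below it on RUNX1_mutant, against 1.64%. The median over this list differed by -0.89 between the 2 CD45.1 arrays. In pooled RNA, fewer cells of a type and less RNA per cell cannot be told apart.

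Genes that prime early progenitors for lymphoid fate lay on the same side, with 9 of 18 at least 2-fold higher on Ezh2_deleted, 1 lower and a median of 1.08. Rag1, a recombinase of antigen receptor genes, lay at 0.55 on Ezh2_deleted and was dim on RUNX1_mutant, at least 4.60 lower. Il7r, the interleukin 7 receptor, lay at 0.85 and -3.63, beside -1.18 to 0.03 on the wild-type arrays. Ccr9, a homing receptor for the thymus, lay at 1.04 and -3.04. Dntt, which adds bases at receptor junctions, was bright on both, at 8.79 and 5.52, with 7.39 to 8.35 on the wild-type arrays. Il7r and Dntt thus lay within 2-fold of the wild-type range on Ezh2_deleted and more than 2-fold below it on RUNX1_mutant, while Rag1 lay above the range on Ezh2_deleted. Their summed signal was 689.2 on Ezh2_deleted, 272.5 on RUNX1_mutant and 499.0 to 579.7 on the wild-type arrays. The 2 CD45.1 arrays differed by -0.76 at the median of this list.

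Among T and NK cell genes, 10 of 20 were at least 2-fold higher on Ezh2_deleted and 0 lower, with a median of 1.08 and a median of 0.92 between the 2 CD45.1 arrays. Zap70, a kinase of the T cell receptor, lay at -0.00 and -3.30. Lck, which acts upstream of it, lay at 4.69 and 1.60, and Nkg7, a granule gene of NK and T cells, at 5.57 and 2.71. On the wild-type arrays Lck lay at 3.83 to 4.41 and Nkg7 at 5.72 to 7.07, so both genes lay below the wild-type range on RUNX1_mutant. The receptor chain Cd3e differed by -0.15, and Gata3, a T cell transcription factor, by -0.98. Of the list, 6 genes lay at least 2-fold below the wild-type range on RUNX1_mutant, against 1.64% of all genes. On Ezh2_deleted 1 of 20 lay above it, against 2.5%. Their signals summed to 97.7 on Ezh2_deleted, 27.1 on RUNX1_mutant and 98.1 to 174.2 on the wild-type arrays.

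Interleukin 18 receptor genes showed the same side. Il18r1, the ligand-binding chain, lay at 1.76 on Ezh2_deleted, was dim on RUNX1_mutant and lay at -0.03 to 0.56 on the wild-type arrays, a difference of at least 5.81. Il18rap, its signalling chain, lay at -0.43 and -2.59. Over all 21 growth factor and cytokine receptors, 5 were at least 2-fold higher and 3 lower on Ezh2_deleted, with a median of 0.01. The lower ones included Il1rl1, the interleukin 33 receptor, and Csf2rb, the shared chain of the interleukin 3, interleukin 5 and GM-CSF receptors. Csf2rb lay at 2.46 and 4.81, and its near-identical copy Csf2rb2 at 0.87 and 4.11; signal may be shared between the 2 probes.

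**Figure D2:**
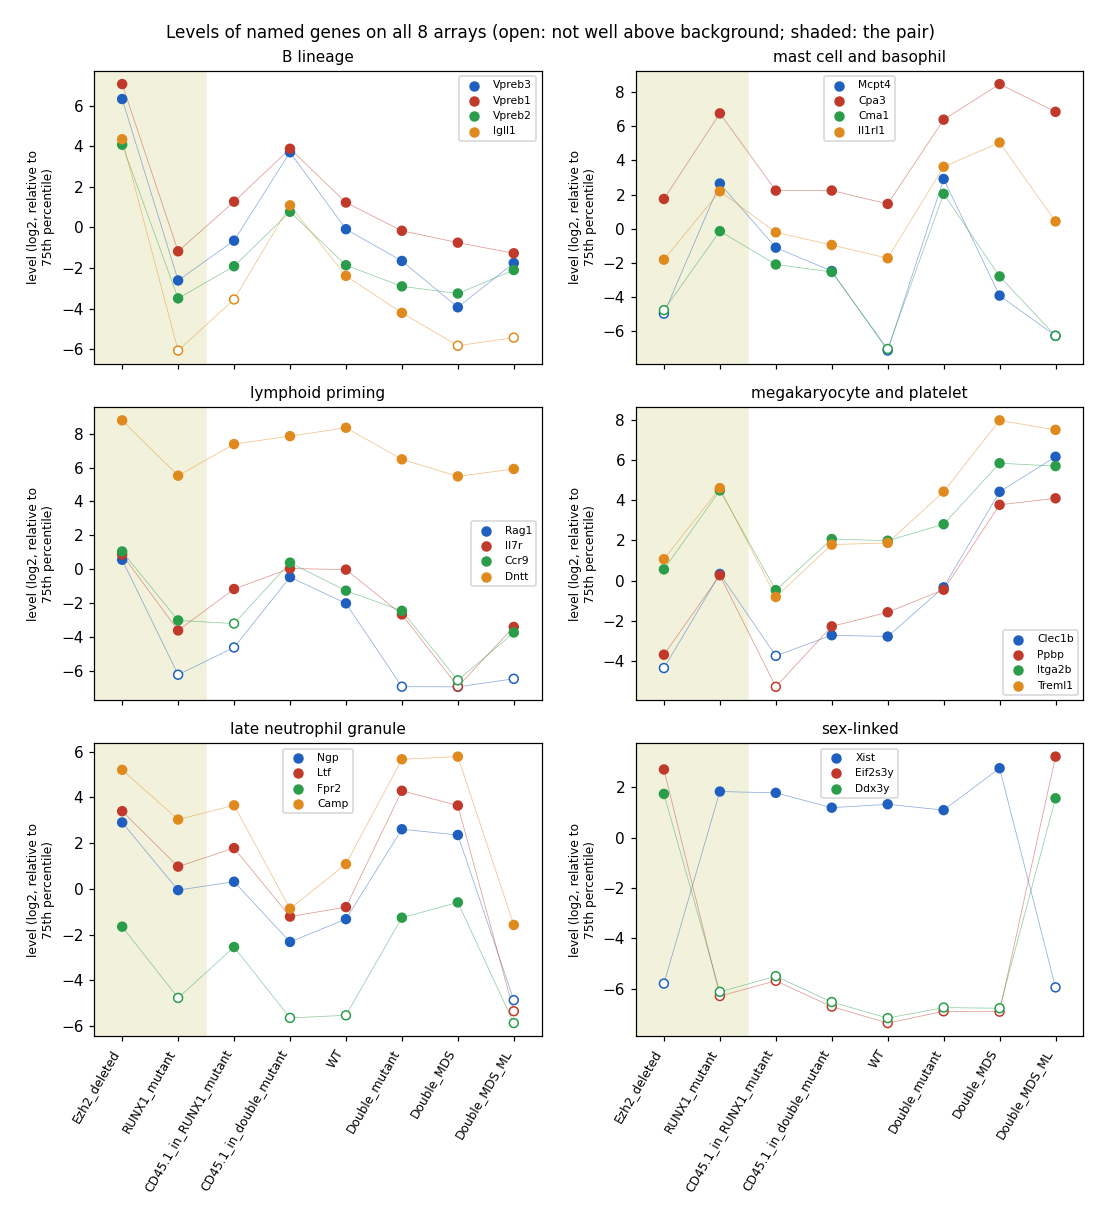
Level (log2, relative to the array's 75th percentile) of 23 genes in 6 groups on all 8 arrays, with the pair shaded, open circles where a gene was dim, and thin lines that only join points of a gene. B lineage genes are highest on Ezh2_deleted and mast cell and platelet genes lie higher on RUNX1_mutant than on Ezh2_deleted; Xist and the Y-linked genes separate Ezh2_deleted and Double_MDS_ML from the other arrays.

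Late and primary granule genes of neutrophils lay on opposite sides. Of 20 late granule genes, 14 were at least 2-fold higher on Ezh2_deleted and 1 lower, with a median of 1.67. Ngp, a granule protein, lay at 2.90 and -0.06, Ltf, which encodes lactoferrin, at 3.39 and 0.97, and Camp, the cathelicidin gene, at 5.20 and 3.03. Each of these 3 lay above the wild-type range on Ezh2_deleted by more than 2-fold and within it on RUNX1_mutant. Fpr2, a receptor for formylated peptides, lay at -1.65 on Ezh2_deleted and was dim on RUNX1_mutant, at least 2.40 lower. The exception was Cxcr2, the chemokine receptor of mature neutrophils, at -2.79 and -0.68. Over the list, signals summed to 633.2 on Ezh2_deleted, 315.0 on RUNX1_mutant and 177.2 to 469.4 on the wild-type arrays. The median over this list differed by 2.05 between the 2 CD45.1 arrays, more than within the pair.

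Of 12 primary granule genes, 6 were at least 2-fold lower on Ezh2_deleted, 1 was higher and the median was -0.996, or -0.11 under spike-in scaling. Ms4a3, a membrane protein of granulocyte and monocyte progenitors, lay at 1.61 and 4.85. Cebpe, a transcription factor of granule formation, lay at 1.04 and 2.70, and Elane, the neutrophil elastase gene, at 2.93 and 4.43. Prss57, a serine protease of the same granules, went the other way at 0.75 and -1.74. The wild-type arrays ranged widely here, with Elane from 2.82 on WT to 7.30 on CD45.1_in_RUNX1_mutant, and the list median differed by 1.46 between the 2 CD45.1 arrays. Summed signal came to 486.5 on Ezh2_deleted, 947.2 on RUNX1_mutant and 618.0 to 3204 on the wild-type arrays.

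Mast cell and basophil genes had the lowest median of any list with at least 5 genes measured, -1.74, or -0.85 under spike-in scaling. Of 19 measured genes, 14 were at least 2-fold lower on Ezh2_deleted and 2 higher. Mcpt4, a mast cell chymase, was dim on Ezh2_deleted and lay at 2.65 on RUNX1_mutant, at least 123-fold higher there, beside -1.11 and -2.48 on the CD45.1 arrays and a dim value on WT. Cpa3, the mast cell carboxypeptidase, lay at 1.74 and 6.75, a 32.3-fold difference, with 1.45 to 2.24 on the wild-type arrays. Il1rl1 lay at -1.81 and 2.19, and Cma1, another chymase, was dim and lay at -0.14. These 4 genes lay within 2-fold of the wild-type range on Ezh2_deleted and above it on RUNX1_mutant. Chymase genes have close copies, and how far their probes share signal was not tested. Receptor and enzyme genes of the list went along: Ms4a2, a chain of the IgE receptor, was at least 2.44 lower, Hdc, which makes histamine, lay at 1.28 and 3.78, and Gata2, a transcription factor of stem and mast cells, at 3.08 and 4.70. Gzmb was higher on Ezh2_deleted by 1.23. The chymase genes Mcpt1 and Mcpt2 were dim on both arrays. Summed over the measured members, signal was 24.4 on Ezh2_deleted, 185.3 on RUNX1_mutant and 29.7 to 46.3 on the wild-type arrays, and 8 members lay at least 2-fold above the wild-type range on RUNX1_mutant, against 2.38% of all genes. The 2 CD45.1 arrays differed by 0.53 at the median.

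Eosinophil granule genes were 8 in number, of which 6 were at least 2-fold lower on Ezh2_deleted and 1 higher. Their median was -1.44, or -0.56 under spike-in scaling. Il5ra, the interleukin 5 receptor, lay at -3.32 and 0.04, against -2.48 to -2.03 on the wild-type arrays. Ear1 and Ear2 encode eosinophil ribonucleases and are close copies; Ear1 lay at -0.81 and 1.44, and Ear2 at 1.20 and 3.31. Ccr3, the eotaxin receptor, was higher on Ezh2_deleted, at -1.41 against -3.56. Signals of the 8 genes summed to 13.6 on Ezh2_deleted, 41.2 on RUNX1_mutant and 4.79 to 16.3 on the wild-type arrays. The list median differed by 1.86 between the 2 CD45.1 arrays.

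Megakaryocyte and platelet genes were lower on Ezh2_deleted, with 12 of 21 at least 2-fold lower, 1 higher and a median of -1.14. Under spike-in scaling this median shrank to -0.26. Clec1b, the podoplanin receptor of platelets, was dim on Ezh2_deleted and lay at 0.33 on RUNX1_mutant, at least 24.7-fold higher. Ppbp, a platelet chemokine, lay at -3.69 and 0.27. Itga2b, which encodes CD41, lay at 0.56 and 4.48, and Treml1, a receptor stored in platelet granules, at 1.06 and 4.60. All 4 lay within 2-fold of the wild-type range on Ezh2_deleted and more than 2-fold above it on RUNX1_mutant. Of the list, 7 lay above that range by as much on RUNX1_mutant and 0 on Ezh2_deleted, against 2.38% and 2.5% of all genes. Vwf, the von Willebrand factor gene, lay at -0.45 and 1.46, with -0.37 to 3.89 on the wild-type arrays. Mmrn1, a platelet granule protein, was the exception at 0.56 and -2.80. The summed signal was 132.9 on Ezh2_deleted, 270.3 on RUNX1_mutant and 100.4 to 187.2 on the wild-type arrays. The 2 CD45.1 arrays differed by -1.32 at the median of this list.

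Stem cell genes had 11 of 29 at least 2-fold lower on Ezh2_deleted, 2 higher and a median of -0.77, which turned to 0.12 under spike-in scaling. Sult1a1, a sulfotransferase gene, gave the lowest value of all genes above background on both arrays, at -3.41 and 2.88, and lay below the wild-type range on the first and above it on the second. Slamf1, the stem cell marker CD150, lay at -3.35 and -1.03. Tek, the angiopoietin receptor of quiescent stem cells, lay at -3.09 and -0.95, and Hoxb5, a marker of long-term stem cells, at -2.70 and -1.44. Gprasp2 was higher on Ezh2_deleted, at 1.33 and -0.47. The list median differed by -1.48 between both CD45.1 arrays. The median level of the list was 1.61 on WT, 1.95 on CD45.1_in_double_mutant and 0.03 on CD45.1_in_RUNX1_mutant. It was 0.78 on Ezh2_deleted and 2.54 on RUNX1_mutant. WT and CD45.1_in_double_mutant thus lay closer to each other than the pair. By the same medians, the 2 CD45.1 arrays lay further apart than the pair. Erythroid genes had a median of -0.03, with 1 of 18 higher and 1 lower.

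**Figure D3:**
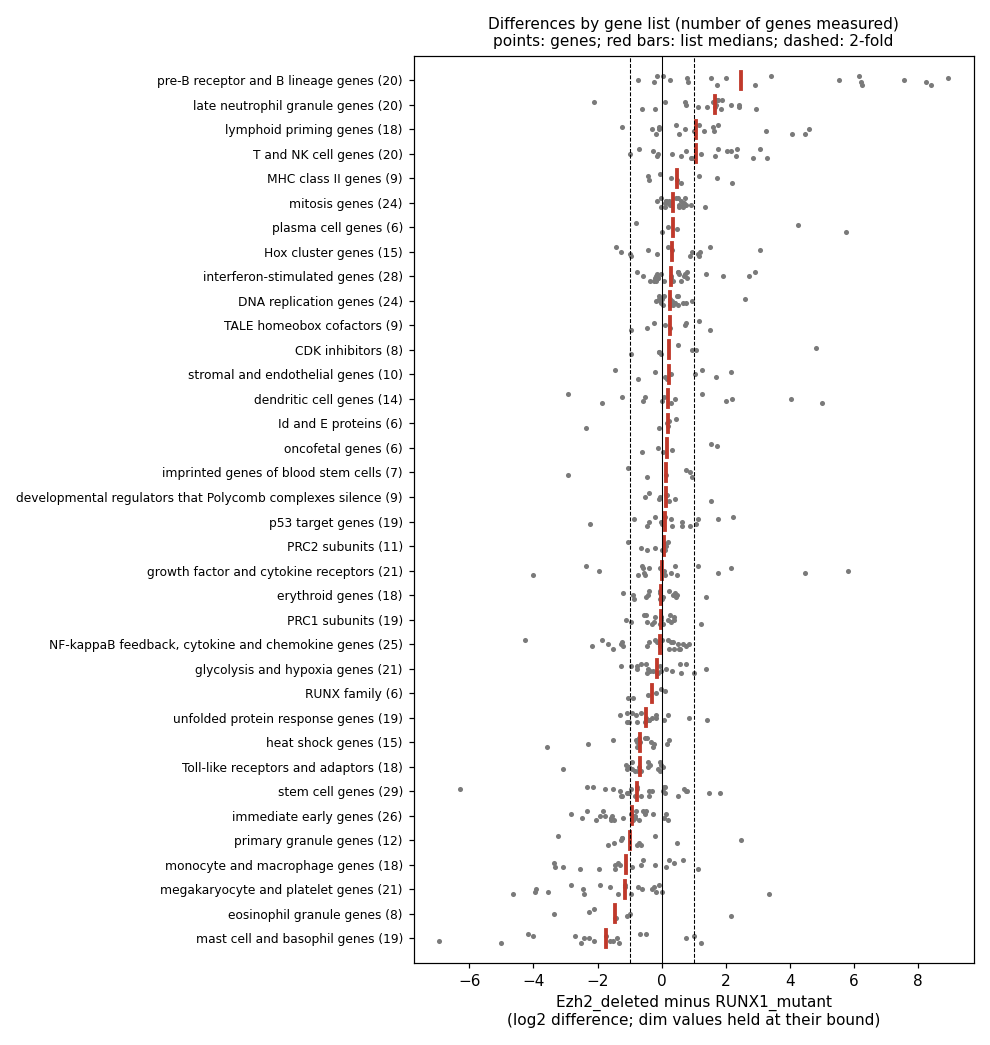
Difference on Ezh2_deleted minus RUNX1_mutant (log2) of each measured gene in 36 lists, grey points, with the list median in red and the number of genes in brackets; dashed lines mark 2-fold. Medians run from -1.74 for mast cell and basophil genes to 2.47 for B lineage genes, and lists of chromatin subunits and cell cycle genes cluster near 0.

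Monocyte and macrophage genes had a median of -1.12, or -0.24 under spike-in scaling, with 9 of 18 at least 2-fold lower on Ezh2_deleted and 1 higher. Ccr2, the receptor for monocyte egress, lay at -2.57 and 0.78. Cd14, which binds lipopolysaccharide, lay at -0.25 and 2.82, Adgre1, a macrophage surface receptor, was dim and lay at -0.98, and F13a1, a coagulation factor chain, lay at 1.44 and 3.99. On the wild-type arrays Ccr2 spanned -1.66 to 2.77, and the 2 CD45.1 arrays differed by 1.17 at the median, so this span was as wide as the pair. The summed signal was 101.3 on Ezh2_deleted, 199.2 on RUNX1_mutant and 105.3 to 328.1 on the wild-type arrays. Toll-like receptors and their adaptors had 4 of 18 at least 2-fold lower and 0 higher, with a median of -0.67 that turned to 0.21 under spike-in scaling. Besides Cd14, these were Cd180, Irak4 and Tirap, at -1.11, -1.08 and -1.01.

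Dendritic cell genes showed no common side, with 5 of 14 at least 2-fold higher, 3 lower and a median of 0.19. Xcr1, the chemokine receptor of cross-presenting dendritic cells, lay at 0.96 on Ezh2_deleted and was dim on RUNX1_mutant and on all 3 wild-type arrays. Ccr7, a receptor for homing to lymph nodes, lay at 0.71 and -3.32, and Cd83 at 3.26 and 1.06. Cd209a was dim on Ezh2_deleted and lay at -1.39 on RUNX1_mutant. Of the 9 MHC class II genes, 3 were at least 2-fold higher and 0 lower, namely H2-Aa at 2.18, H2-Eb1 at 1.72 and the invariant chain gene Cd74 at 1.17. Among plasma cell genes, Mzb1, a chaperone of antibody assembly, lay at 3.06 and -2.70, and Irf4, a transcription factor of B and plasma cells, at 0.66 and -3.60, while Sdc1 differed by 0.49 and Jchain by 0.01.

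Immediate early genes, which respond rapidly to growth factors and stress, were lower on Ezh2_deleted in 23 of 26 cases, 12 of them at least 2-fold and 0 higher by as much, with a median of -0.93, or -0.05 under spike-in scaling. Egr2 lay at -1.45 and 1.39. Fosb, an AP-1 subunit, lay at 5.81 and 8.28, Klf2 at 6.15 and 8.49, and Atf3 at 4.19 and 6.24. On all 3 wild-type arrays Fosb lay more than 2-fold below its level on RUNX1_mutant, down to 4.91 on WT. Of the 26 genes, 8 lay at least 2-fold above the wild-type range on RUNX1_mutant, against 2.38% of all genes, and 1 above and 1 below it on Ezh2_deleted, against 2.5% and 0.731%. The summed signal was 1731 on Ezh2_deleted, 4025 on RUNX1_mutant and 884.9 to 2272 on the wild-type arrays. The list median differed by -0.87 between the CD45.1 arrays.

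Heat shock genes had 3 of 15 at least 2-fold lower on Ezh2_deleted, 0 higher and a median of -0.67 that turned to 0.21 under spike-in scaling. Hspa1a, the inducible chaperone Hsp70, lay at -0.46 and 3.13 but spanned -2.91 to 4.04 on the wild-type arrays; its copy Hspa1b may share signal. Hspb1 lay at -1.10 and 1.22 and Hsph1 at 2.48 and 4.00. No heat shock gene lay 2-fold outside the wild-type range on either array (0 of 15), and neither did 93.4% of all genes measured. Among unfolded protein response genes, 4 of 19 were at least 2-fold lower and 1 was higher, with a median of -0.47 that turned to 0.41 under spike-in scaling. Trib3 was the higher one, at 2.75 and 1.33, and the lower ones were Ppp1r15a, Sdf2l1, Creld2 and the chaperone Hspa5. Of 25 NF-kappaB feedback, cytokine and chemokine genes, 8 were at least 2-fold lower and 0 higher, with a median of -0.05 that turned to 0.83 under spike-in scaling. Ccl2, a monocyte chemokine, lay at -0.76 and 3.50, Cxcl1 was dim and lay at -2.14, Socs3, a brake on cytokine signals, lay at 4.09 and 5.96, and Cxcl2 lay at -0.17 and 1.51. Of the core factors of the pathway, Nfkb1 differed by -0.39 and Nfkbia by 0.22, and Rel, dim on RUNX1_mutant, was at least 0.40 higher on Ezh2_deleted.

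Most subunits of the Polycomb complexes were less than 2-fold apart on the 2 arrays, as were 87.8% of all genes measured. Of 11 PRC2 genes, 10 were less than 2-fold apart, and Phf1, an accessory subunit, lay at -0.40 and 0.65. Ezh1, the other PRC2 methyltransferase, lay at 3.78 and 4.43. Of 19 PRC1 genes, Bmi1 was higher on Ezh2_deleted, at 3.46 and 2.23, and Pcgf2 lower, at -2.36 and -1.24. In the RUNX family, apart from Runx1, the values differed by -0.42 for Runx2, -0.16 for Runx3 and 0.12 for Cbfb, the DNA-binding partner. Cbfa2t3, a co-repressor that binds RUNX-containing complexes, differed by -0.90.

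Developmental regulators that Polycomb complexes silence were mostly dim. Of 36 listed, 9 were above background on at least 1 array. Of these, 1 (11.1%) was at least 2-fold higher on Ezh2_deleted, against 6.35% of all genes. It was Lhx2, a LIM homeobox gene, at -2.51 on Ezh2_deleted and dim on RUNX1_mutant. Of 39 Hox cluster genes, 15 were measured. Of these, 5 (33.3%) were at least 2-fold higher and 2 (13.3%) lower, against 6.35% and 5.86% of all genes. On Ezh2_deleted 1 lay at least 2-fold above the wild-type range and 2 below it, against 2.5% and 0.731% of all genes. On RUNX1_mutant 0 lay outside it, against 2.38% of all genes above it and 1.64% below it. Hoxa10, expressed in early progenitors, lay at 0.88 and -2.20, with -2.25 to -0.59 on the wild-type arrays. Hoxa9 lay at -0.06 and -1.24. The genes of the Hoxb cluster were on both sides, with Hoxb7 at least 2.83-fold higher, and Hoxb2 at -1.38 and 0.03. Of the Meis and Pbx cofactors, Pbx4 and Pbx3 were higher by 1.51 and 1.17, and Meis1 differed by -0.95.

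Cdkn2a, a locus of cell cycle inhibitors that Polycomb complexes are known to silence, lay at 0.77 on Ezh2_deleted and was dim on RUNX1_mutant, at least 28.3-fold lower. On the wild-type arrays it was dim on CD45.1_in_RUNX1_mutant and WT and lay at -3.00 on CD45.1_in_double_mutant. The neighbouring inhibitor gene Cdkn2b lay at -3.55 on Ezh2_deleted and was dim on RUNX1_mutant, at least 0.51 lower. Cdkn1a, which encodes p21, lay at 4.35 and 5.29, both above the 1.69 to 3.61 of the wild-type arrays. Of 19 p53 target genes, 4 were at least 2-fold higher on Ezh2_deleted and 1 lower, against 6.35% and 5.86% of all genes. Phlda3 lay at 2.16 and -0.05, Zmat3 at -0.21 and -1.96, and Tnfrsf10b at 2.22 and 1.07, whereas Gdf15 lay at -0.21 and 2.04. Hmga2, an oncofetal chromatin gene, was near equal on both, at 2.16 and 1.83, and at least 2-fold above the wild-type range of -1.57 to -0.16 on both. Igf2bp3, an oncofetal RNA-binding protein, lay at -2.50 on Ezh2_deleted and was dim on RUNX1_mutant. Dlk1, an imprinted gene, lay at -2.05 and 0.87.

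Few cell cycle genes were 2-fold apart. Of 24 mitosis genes, 1 was at least 2-fold higher on Ezh2_deleted and 0 lower (4.17% higher, against 6.35% of all genes), while 21 had a positive difference and the median was 0.37. Cenpa, the centromeric histone, lay at 4.19 and 2.82, Ndc80 at 1.01 and 0.11 and Birc5 at 6.67 and 5.94. Of 24 DNA replication genes, 1 was at least 2-fold higher, 18 had a positive difference and the median was 0.27. Ccne2, which encodes cyclin E2, was at least 2.61 higher, at -1.45 on Ezh2_deleted. No mitosis gene lay 2-fold outside the wild-type range on either array (0 of 24), and neither did 93.4% of all genes measured. Interferon-stimulated genes had 4 of 28 at least 2-fold higher and 0 lower, with a median of 0.29. These were Ifi27l2a at 5.59 and 2.69, Oasl2 at 2.77 and 0.04, Ifit3, dim on RUNX1_mutant and at least 1.93 lower there, and Rtp4 at 3.97 and 2.58. Irf7, a factor that drives the response, differed by 0.51.

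Beyond the lists, the genes with the greatest distance held several outside blood biology. Hnf4a, a nuclear receptor best known from liver, lay at 4.18 and -2.85, a 130-fold difference, with -0.29 to 2.00 on the wild-type arrays. Gfra2, a receptor for neurturin, lay at 3.32 and -3.21. Bfsp2, best known as a lens filament gene, lay at 5.32 and -0.54, and Bex1 and Bex4, X-linked adaptor genes, at 3.54 and -1.81 and at 2.70 and -2.57. Ddx4, a germ cell helicase, lay at 2.26 on Ezh2_deleted and was dim on RUNX1_mutant. On the other side, C4b, a complement component, lay at -1.03 and 4.07. Mrgpra2a and Mrgpra2b, near-identical receptor genes, lay at -1.09 and 3.55 and at -0.94 and 3.63. Rap1gap, which switches off the GTPase Rap1, lay at -3.31 and 1.06. Among the dim ones, Ttc29, Tex28 and Olfr213 lay at 0.17, 0.15 and 0.06 on RUNX1_mutant and were dim on Ezh2_deleted and both CD45.1 arrays, so each value rests on 1 array of the pair.

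Since the pair differs by both lesions at once, the 3 wild-type arrays were used to show on which array a gene departed. Ezh2_deleted lay at least 2-fold above their range at 339 genes (2.5% of 13549) and below it at 99 (0.731%). RUNX1_mutant lay above it at 323 (2.38%) and below it at 222 (1.64%). Of the 861 genes at least 2-fold higher on Ezh2_deleted, 227 had only Ezh2_deleted outside the range, 146 only RUNX1_mutant, 24 both and 464 neither. Of the 794 lower genes, 51 had only Ezh2_deleted outside, 211 only RUNX1_mutant, 15 both and 517 neither. With the scaling used here, more of the lower genes thus departed on RUNX1_mutant than on Ezh2_deleted. With it, 53.9% of the higher and 65.1% of the lower genes stayed within 2-fold of the wild-type range on both arrays. Under spike-in scaling, over all genes, Ezh2_deleted lay at least 2-fold below the range at 187 and RUNX1_mutant above it at 56. The order of the lower genes thus depends on the scaling. Raising dim values to the weakest signal above background also limits how far below the range a gene can lie. Of these 5 arrays, only WT lay on another slide. Without CD45.1_in_RUNX1_mutant, the 4 counts of the main setting rose to 533 above and 209 below for Ezh2_deleted and 504 above and 415 below for RUNX1_mutant. Without CD45.1_in_double_mutant, Ezh2_deleted lay below at 168 genes and RUNX1_mutant above at 539, and without WT, Ezh2_deleted lay below at 243.

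**Figure D4:**
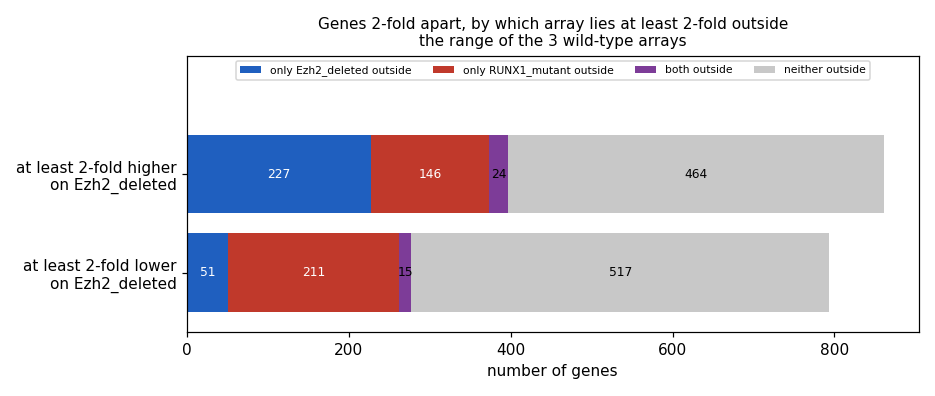
Number of genes at least 2-fold higher (861) and lower (794) on Ezh2_deleted, split by which of the 2 arrays lay at least 2-fold outside the range of the 3 wild-type arrays. Only Ezh2_deleted was outside for 227 of the higher genes and 51 of the lower ones, and only RUNX1_mutant for 146 and 211.

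In 23 genes Ezh2_deleted lay above and RUNX1_mutant below the wild-type range by at least 2-fold each, among them Vpreb1, Vpreb3, Blnk, Hnf4a, Bfsp2 and Skap1, an adaptor of T cells. In 9 genes the order was reversed, among them Sult1a1, Rhoj, Polm, Ecm1 and Csf2rb2. Rhoj, a small GTPase, lay at -3.34 and 1.05, and Polm, a DNA polymerase that takes part in end joining, at -2.59 and 0.98. Both arrays lay above the range for 46 genes, including Hmga2 and Chac1, a glutathione-degrading enzyme at 2.08 and 1.89, and below it for 17, including Ffar2, a receptor for short-chain fatty acids at 1.32 and 1.84. Lmo1, a LIM-domain gene, departed on RUNX1_mutant alone, at 2.10 and -1.76 with 2.40 to 3.78 on the wild-type arrays. Card14 departed on Ezh2_deleted alone, at 0.87, and was dim on RUNX1_mutant.

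Double_mutant, which carries both lesions and was run on another slide, gave the following levels for the genes that lead these groups. Vpreb3 lay at -1.65, Vpreb1 at -0.17 and Blnk at -0.12, near their levels on RUNX1_mutant and far below Ezh2_deleted. Il7r lay at -2.68 and Lck at 0.74, also nearer to RUNX1_mutant. Mcpt4 lay at 2.91, Cpa3 at 6.39 and Treml1 at 4.42, again nearer to RUNX1_mutant. Ltf at 4.28 and Camp at 5.66 lay nearer to Ezh2_deleted. Fosb at 3.82 and Egr2 at -1.99 lay below both arrays of the pair, nearer to Ezh2_deleted. The median level of the immediate early list was 2.85 on Double_mutant and 2.89 on WT, which share a slide. It was 4.05 on Ezh2_deleted and 5.18 on RUNX1_mutant. Cdkn2a lay at -0.92, nearer to Ezh2_deleted. These values are given side by side with no test.

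A model over all 8 arrays gave the pair a spread from other arrays. Fitted with limma, it had additive terms for Ezh2 deletion, RUNX1S291fs and moribund stage, and 4 residual degrees of freedom. With Benjamini-Hochberg adjustment at 0.05, 0 of 13549 genes were called (0%). An unadjusted limma p of at most 0.05 was found for 661 genes (4.88%), a share no larger than that threshold itself. The smallest p values belonged to Il18r1 (5.84, SE 0.62), Tmprss4 (5.11, SE 0.61), Gcsam (3.62, SE 0.48), Rap1gap (-4.37, SE 0.59) and Igfbp6 (-3.96, SE 0.56), each with a limma adjusted p of 0.355. These are measured differences, with dim values kept as read. Over the alternatives the limma adjusted p ranged from 0.0007 to 0.643 for Il18r1, 0.00452 to 0.919 for Tmprss4, 0.107 to 1 for Gcsam, 0.142 to 0.643 for Rap1gap and 0.161 to 0.689 for Igfbp6. Only spike-in scaling brought the limma adjusted p of Il18r1 and Tmprss4 under 0.05. Tmprss4, a membrane protease, lay at -1.27 on Ezh2_deleted and was dim on RUNX1_mutant, and Igfbp6, an IGF-binding protein, lay at -3.50 and 0.46. A fit with the product of both genotypes also called 0, with 784 (5.79%) at an unadjusted p of at most 0.05. The large differences at B lineage, mast cell and platelet genes rest on 1 array a side and did not pass this test. Spike-in scaling called 147 genes, 137 of them higher.

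Promoter sequence was read for the leading member of the 6 lists with the largest medians in size among those with at least 5 genes measured, from RefSeq on GRCm38.p6, as the 250 bases before the annotated start. The motif letters searched on both strands were TGTGGT for RUNX factors, TGANTCA for AP-1, AGATAA for GATA factors, GAANNTTC for heat shock factors, and TCCC and GGGA with any 2 bases between them for EBF. Of these promoters, 4 held a match, and they are shown because their genes lead the groups that separate the arrays; capitals mark the match on the strand shown, and TTATCT is the GATA motif read from the other strand. Those of Ngp and Clec1b held none.
Vpreb3 (chr10:75948050-75948299, forward strand): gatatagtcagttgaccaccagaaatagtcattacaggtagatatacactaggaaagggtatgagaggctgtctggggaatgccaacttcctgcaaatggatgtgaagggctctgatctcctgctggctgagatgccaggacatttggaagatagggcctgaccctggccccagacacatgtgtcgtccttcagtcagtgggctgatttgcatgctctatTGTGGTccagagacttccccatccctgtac
Mcpt4 (chr14:56062311-56062560, reverse strand): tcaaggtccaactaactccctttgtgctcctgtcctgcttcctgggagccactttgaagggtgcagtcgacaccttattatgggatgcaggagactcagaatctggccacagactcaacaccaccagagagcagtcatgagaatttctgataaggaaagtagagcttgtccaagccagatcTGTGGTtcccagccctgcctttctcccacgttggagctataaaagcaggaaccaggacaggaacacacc
Il5ra (chr6:106749038-106749287, reverse strand): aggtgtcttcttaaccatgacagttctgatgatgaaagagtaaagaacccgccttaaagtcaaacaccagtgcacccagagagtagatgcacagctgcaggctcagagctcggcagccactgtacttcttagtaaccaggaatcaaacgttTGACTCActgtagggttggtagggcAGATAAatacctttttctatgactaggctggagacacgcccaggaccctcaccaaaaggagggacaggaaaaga
Ccr2 (chr9:124101933-124102182, forward strand): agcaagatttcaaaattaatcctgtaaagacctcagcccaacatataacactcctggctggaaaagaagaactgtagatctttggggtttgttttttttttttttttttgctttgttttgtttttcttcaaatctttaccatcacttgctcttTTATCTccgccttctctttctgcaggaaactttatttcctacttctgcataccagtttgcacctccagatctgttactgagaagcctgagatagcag
Vpreb3 and Mcpt4, which lie at opposite ends of the differences, each held 1 RUNX match. Il5ra held 1 AP-1 and 1 GATA match, and Ccr2 held 1 GATA match. Over all genes with a promoter in the table, the RUNX letters were present for 12.7% of the 653 genes higher on Ezh2_deleted, 11.9% of the 621 lower genes and 11.1% of the 10838 measured genes, and in 14.2% of all 27025 promoters. AP-1 letters were present for 5.51%, 6.60% and 4.59% of the same 3 sets, and GATA letters for 9.19%, 6.44% and 6.54%. EBF letters were present for 0.919%, 1.13% and 0.886%, and heat shock letters for 6.13%, 4.83% and 5.21%. A match describes letters in this window and is not a binding site.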

How the data were processed

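Gene expression was measured on Agilent one-colour mouse arrays (20 ng of RNA per array, labelled with Cy3, per the labels' protocols), 1 array for each of 8 groups. Per the file headers, the scans were extracted by Agilent Feature Extraction 10.7.1.1. Its processed signal is an intensity, background-subtracted on each array by itself. The series table deposited by the authors holds a linear signal. On all 8 arrays its values were the processed signal at 1 ratio per array for 100% of 55636 probes (tolerance 0.01 log2), with a 75th percentile of 1.00 to 1.01. Of its columns, 0 were left out.

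Of 62976 spots per array, 59305 carried non-control probes. Repeat spots were averaged, flagged outlier spots left out, and levels taken as log2 of the deposited intensity minus the array's 75th percentile. RefSeq (GRCm38.p6) names were matched by accession. They covered 27208 probes and 20643 genes, and 28428 probes stayed unnamed. A gene was read from its brightest probe by mean over the 8 arrays. Only 3 genes had probes 2-fold apart in opposite directions. Precision is limited by the number of arrays.

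The model was fitted with limma 3.58.1 in R 4.3.3 and tested on simulated data. The contrast of its Ezh2 deletion and RUNX1S291fs terms equals the measured difference of the 2 arrays, and the residual spread draws on wild-type arrays, moribund arrays and non-additivity. A replicate block was not possible. The pair has 1 array per group, so lists are described by counts and medians only. The 38 lists held 674 genes, 663 with a probe. The members and lists were chosen with earlier results of these data known.

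Genes named are, by rule, the 12 largest differences each way among genes above background on both arrays, the 8 largest bounds each way, up to 4 per list with the largest difference, the 6 with the largest departure per class of placement against wild type, the targeted, sort and sex-linked genes and the 5 smallest p values in limma. Other genes named were chosen after their values were seen. A few genes that the rule names are not reported here. Alternatives were other background correction, scaling, normalization, probe choice, filters, bounds, models and left-out arrays. Normexp correction used median spot signals in place of the mean signals planned.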

Additional observations from a re-analysis of the deposited data

How the results depend on the processing

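The count of genes 2-fold apart (1655, of which 861 higher and 794 lower on Ezh2_deleted) stayed within 1.5 times under the authors' series table, median scaling, quantile and loess normalization, the mean over probes, no filter and measured values in place of bounds. The series table holds the same processed signal rescaled per array, and lifting the filter adds only genes dim on both arrays. Neither of these settings could change the count by much. The count came to 898 (433 higher, 465 lower) with normexp background correction and to 4894 (4668 higher, 226 lower) with spike-in scaling. Among genes above background on both arrays, 528 were higher. Median scaling gave 43.5% higher and measured values 56.5%.

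Placement counts against the wild-type range (Ezh2_deleted above and below, then RUNX1_mutant above and below) were 2348, 4412, 3072 and 3997 at any distance outside it and 150, 46, 155 and 95 with normexp. With spike-in scaling, Ezh2_deleted lay below at 187 genes and RUNX1_mutant above at 56 and below at 3287. With both CD45.1 arrays alone, Ezh2_deleted lay below at 243, and with genes above background on both arrays, above at 206. Leaving out 1 wild-type array at a time gave 402 to 533, 168 to 243, 366 to 539 and 300 to 415.

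The limma count was 0 in every other fit, slide as a block included, except spike-in scaling, with 147, and stayed at 0 when each other array was left out. The adjusted p of Il18r1 ranged from 0.0007 to 0.643 over the alternatives. Among lists whose median was at least 0.5 in size, spike-in scaling turned the sign for stem cell genes (0.12), heat shock genes (0.21) and Toll-like receptors (0.21). This scaling adds the same constant to every measured difference. For single named genes, 1724 of the recomputed differences were labelled the same and 253 moved, and none was labelled reversed. These labels do not record every change of sign. The constant of spike-in scaling was larger than some differences, and turned small negative ones positive. Among these were Ezh1 (-0.66 in the main setting) and Kit (-0.51).

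No paired analysis was possible because the groups compared share fewer than 2 replicate numbers. With 1 array per group, nothing here separates a lesion from the mice pooled, from sex or from sorting, and low levels rest on signal near background.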
